A study of Mus musculus with 12 samples.

Results

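Nucleic acid sensing genes of the mouse liver were described in animals that lack telomerase reverse transcriptase, Tert, and in wild-type animals after ENU or saline. The set held 10 genes, chosen by name among the 49584 genes of the expression table: the RNA sensors Ddx58, Ifih1 and Dhx58, their adaptor Mavs, the DNA sensor Mb21d1 and its adaptor Tmem173, the Z-form nucleic acid sensor Zbp1, the kinases Tbk1 and Ikbke, and the RNA editing enzyme Adar. All 10 were found once each. Zbp1 and Adar rose 24 h after ENU averaged over genotypes. As deposited, every ENU library lay above every saline library for both genes; after rescaling the libraries to a common median this held for Adar and not for Zbp1. Mb21d1 and Tmem173 were low throughout, with lower group means in Tert-/- than in wild-type livers. Lower Tert-/- means in both treatments were not particular to them, since Ddx58, Dhx58, Mavs, Zbp1, Ikbke and Adar had them too. Over all tested genes the median log2 difference between genotypes, averaged over treatments, was −0.11.

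The groups were G1 Tert-/- mice after ENU, G1 Tert-/- mice after saline, wild-type mice after ENU and wild-type mice after saline, with 3 liver libraries in each. ENU is N-ethyl-N-nitrosourea, an alkylating mutagen, and was injected into the peritoneal cavity at 150 µg per g body weight. All mice were of the mixed strain C57BL/6/129/SvJ and age-matched, with no age given, and all livers were taken 24 h after injection. Whether every library is from its own animal is not stated in the labels, so the p-values below measure the spread between these libraries, which may in part be technical.

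Cells detect foreign or misplaced nucleic acid through a small set of receptors. The helicases RIG-I (Ddx58) and MDA5 (Ifih1) bind double-stranded RNA in the cytoplasm and signal through MAVS on mitochondria, while LGP2 (Dhx58) binds RNA and modulates them. The enzyme cGAS (Mb21d1) binds cytoplasmic DNA and makes a cyclic dinucleotide that activates STING (Tmem173). Both routes meet at the kinases TBK1 and IKKε (Ikbke), which phosphorylate interferon regulatory factors, and ADAR edits the body's own double-stranded RNA, which keeps it from being sensed. Many of these genes are themselves induced by interferon.

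Promoter sequences were matched to see which members carry the interferon-stimulated response element near their start sites. RefSeq promoters of the GRCm38.p6 build (300 bases each, of which the last 50 follow the start site) were found for 7 members, Mb21d1 under its newer symbol Cgas. Dhx58, Tmem173 and Zbp1 had no entry. The core of that element (GAAA, any 2 bases, GAAA), searched on both strands, occurred in 2 of those 7 genes, Ddx58 and Ifih1, and in 3.44% of all 32851 promoters. In Ddx58 the match lay on the opposite strand and began at base 3, counted from the start site as base 1, and in Ifih1 it lay on the gene's strand and began at base 33. The STAT element TTCNNNGAA occurred in 1 of the 3 Adar promoters, the one farthest downstream, from base 23, and in 8.3% of all promoters. An NF-κB element (GGGA, any 4 bases, CC) occurred in the Mb21d1 promoter and in 1 Adar promoter, and in 20.7% of all. The 2 promoters with the interferon element and the downstream Adar promoter are shown 5′ to 3′ on the gene's strand, because these 3 genes include the RNA sensors and the editing enzyme whose levels are described next. Capitals mark the interferon element.
Ddx58, chr4:40239776-40240075, minus strand: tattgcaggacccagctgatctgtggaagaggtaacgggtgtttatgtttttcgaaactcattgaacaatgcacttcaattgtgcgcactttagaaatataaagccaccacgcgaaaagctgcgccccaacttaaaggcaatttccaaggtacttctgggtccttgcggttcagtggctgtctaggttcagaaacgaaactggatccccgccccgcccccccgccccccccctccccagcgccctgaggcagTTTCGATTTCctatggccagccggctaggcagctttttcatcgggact
Ifih1, chr2:62646206-62646505, minus strand: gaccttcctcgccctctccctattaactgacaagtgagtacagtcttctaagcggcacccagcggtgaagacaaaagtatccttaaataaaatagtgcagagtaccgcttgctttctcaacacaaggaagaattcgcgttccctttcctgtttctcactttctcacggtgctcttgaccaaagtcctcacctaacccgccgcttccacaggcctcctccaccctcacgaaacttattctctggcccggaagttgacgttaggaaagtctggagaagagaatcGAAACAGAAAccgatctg
Adar, downstream promoter, chr3:89730468-89730767, plus strand: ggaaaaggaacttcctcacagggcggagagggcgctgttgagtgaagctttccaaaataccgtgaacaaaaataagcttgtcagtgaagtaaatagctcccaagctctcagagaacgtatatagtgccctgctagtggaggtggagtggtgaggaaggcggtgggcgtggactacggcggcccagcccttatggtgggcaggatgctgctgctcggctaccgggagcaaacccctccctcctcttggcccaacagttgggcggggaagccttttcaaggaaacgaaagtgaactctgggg

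Levels are given as FPKM, a read density per length of gene and per library size, which is scaled for gene length and so can be set side by side between genes. Over the 12 libraries the mean level was highest for Mavs at 42.2 FPKM, above 82.3% of the 12434 genes that passed a filter of at least 1 FPKM in at least 3 libraries. Ikbke followed at 19.7 FPKM, Ddx58 at 18.6, Dhx58 at 13.7, Ifih1 at 13.4, Tbk1 at 9.55, Adar at 9.40 and Zbp1 at 5.72. Neighbours among these 8 had overlapping ranges over the libraries. For Mavs and Ikbke the overlap rested on Tert-/- saline replicate 2, with Mavs at 18.4 FPKM and Ikbke at 13.1. Mavs lay above Ikbke in every library. Tmem173 at 0.767 FPKM lay below all 8 in every library, and Mb21d1 at 0.0991 FPKM lay below Tmem173 in every library. Of the 10 members, 9 passed the filter and were tested, and Mb21d1 did not, since none of its libraries reached 1 FPKM. Tmem173 passed through 3 wild-type libraries alone, so a lower value in Tert-/- libraries was built into its passing.

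**Figure D1:**
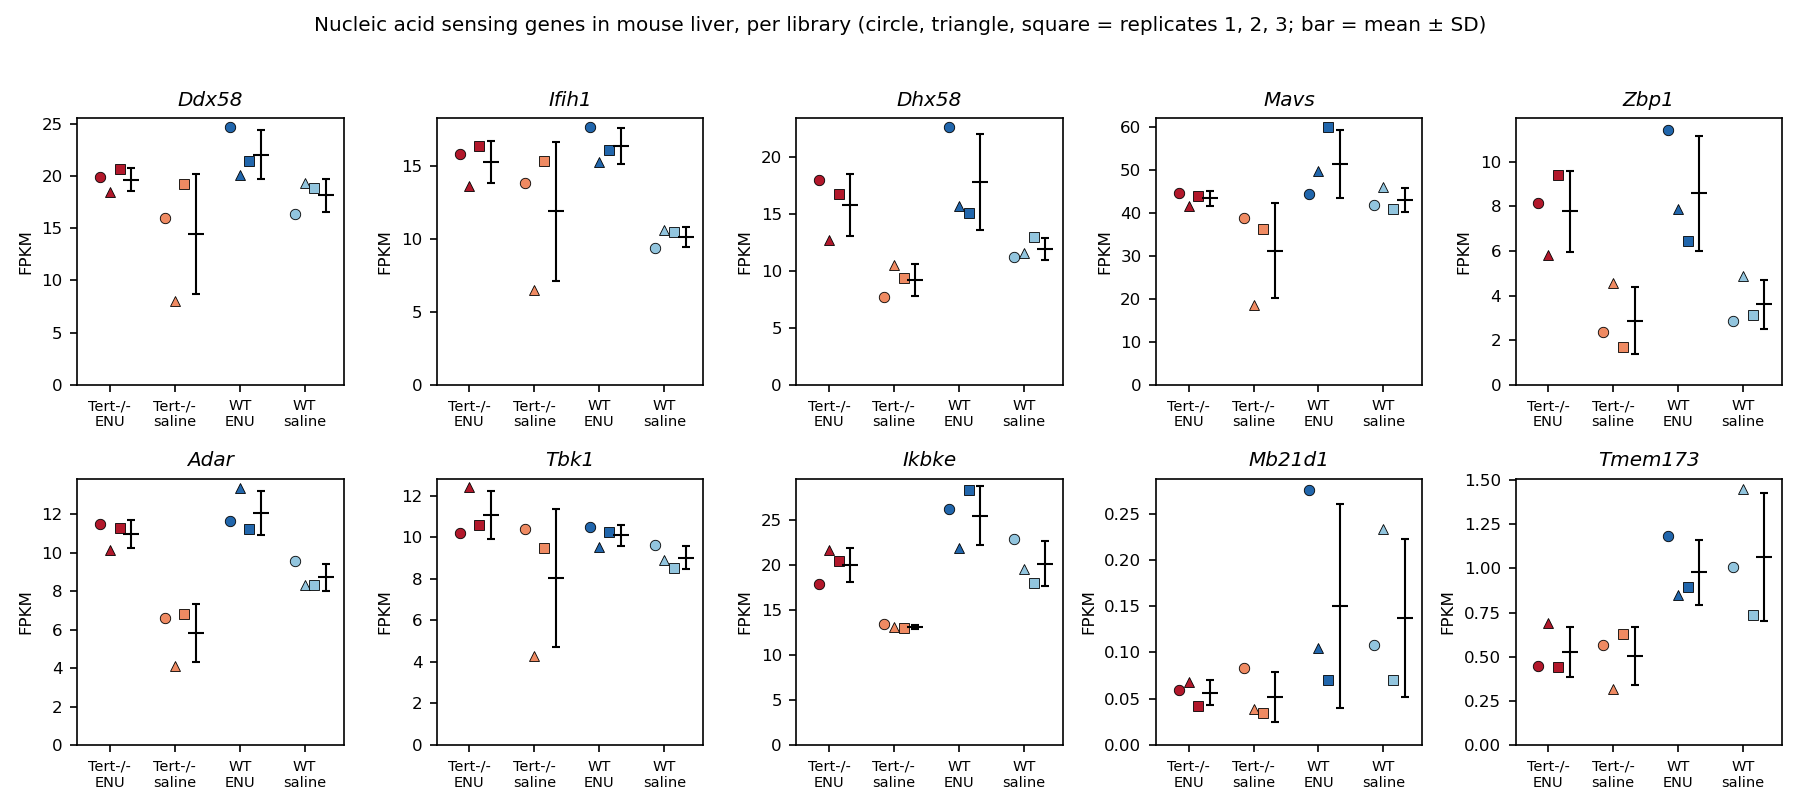
FPKM of the 10 members (y axes, linear from 0) in each library of the 4 groups (x axes), with points for replicates and a bar for the mean ± SD. In the Zbp1 and Adar panels all ENU points lie above all saline points, and in 6 panels, Ddx58, Ifih1, Mavs, Adar, Tbk1 and Tmem173, the triangle of Tert-/- saline replicate 2 lies lowest of all 12 points.

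Libraries held 30053759 to 43680236 reads in genes. Tert itself averaged 1.32 ± 0.269 FPKM in Tert-/- ENU livers and 0.494 ± 0.22 FPKM in Tert-/- saline livers, against 5.54 ± 0.772 FPKM in wild-type ENU livers and 2.67 ± 0.919 FPKM in wild-type saline livers (SD, n = 3 each). The labels do not say which exons were deleted, so the reads left in Tert-/- libraries cannot be placed relative to the deletion. Tert-/- saline replicate 2 stood apart from the other 11 libraries. It had reads in 17486 genes, against 19576 to 20310 in the others, 29.53% of its reads fell in the top 20 genes, against 17.36 to 21.69% elsewhere, and its summed erythroid markers were the highest at 801 FPKM. Where leaving it out changes a call, or moves a difference or a count by over 1.5 times, the value without it is given beside the result. The defining hepatocyte markers summed to 38800 to 95200 FPKM over all libraries, and no gene of any marker list was at 0 in every library.

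Zbp1, a sensor of Z-form RNA and DNA that can trigger necroptosis, showed the largest ENU difference among the members. It stood at 8.17, 5.81 and 9.40 FPKM in Tert-/- ENU livers, against 2.37, 4.55 and 1.70 FPKM in Tert-/- saline livers. In wild-type ENU livers it stood at 11.5, 7.91 and 6.44 FPKM, against 2.87, 4.88 and 3.12 FPKM in wild-type saline livers. As deposited, the lowest ENU library of either genotype lay above the highest saline library of either genotype. After median-ratio rescaling, which divides each library by its median ratio to a common reference, Tert-/- saline replicate 2 stood at 6.96, above Tert-/- ENU replicate 2 at 5.57 and wild-type ENU replicate 3 at 5.85, so the groups then overlapped. The ratio of group means, ENU over saline, was 2.71 in Tert-/- livers and 2.37 in wild-type livers. Averaged over genotypes, Zbp1 was 1.14 ± 0.21 (SE) higher after ENU on the log2(FPKM + 1) scale, which understates the change of genes with low values (limma, Benjamini-Hochberg adjusted p = 0.00658). It was 1.23 ± 0.30 higher in Tert-/- livers (limma adjusted p = 0.0272), and the difference in wild-type livers, 1.05 ± 0.30, did not pass the threshold of 0.05 (limma adjusted p = 0.155). Without Tert-/- saline replicate 2 the wild-type difference did pass (limma adjusted p = 0.0207); that library enters the model through the spread shared by all groups.

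Adar, which converts adenosine to inosine in double-stranded RNA, had 11.5, 10.2 and 11.3 FPKM in Tert-/- ENU livers, against 6.61, 4.09 and 6.82 FPKM in Tert-/- saline livers. In wild-type livers it had 11.6, 13.4 and 11.2 FPKM after ENU, against 9.54, 8.31 and 8.30 FPKM after saline. No ENU library overlapped a saline library in either genotype, and within saline all Tert-/- libraries lay under all wild-type libraries; both held after median-ratio rescaling. Adar was 0.63 ± 0.13 (SE, log2) higher after ENU averaged over genotypes (limma, adjusted p = 0.00974) and 0.83 ± 0.18 higher in Tert-/- livers (limma, adjusted p = 0.0185). In wild-type livers the difference was 0.43 (limma, adjusted p = 0.349), and without Tert-/- saline replicate 2 it passed the threshold at the same size (limma, adjusted p = 0.0238). The saline difference between genotypes, 0.53 lower in Tert-/- livers, did not pass (limma, adjusted p = 0.105), and it was 0.33 lower without that replicate (limma, adjusted p = 0.0686). Adar shares 1365 of its 8118 exonic bases with Chrnb2 on the opposite strand, and the strand setting of the counting is not given in the sources used here. Chrnb2 itself averaged 0.484 FPKM.

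Zbp1 and Adar were the 2 members whose 6 ENU libraries all lay above the 6 saline libraries, a separation shown by 8.2% of all tested genes. Leaving out Tert-/- saline replicate 2 gave the same 2 members and 9.55% of tested genes, and median-ratio rescaling left Adar and 3.77% of the genes that then passed the filter. Both stayed past the threshold for ENU averaged over genotypes under all 17 alternative settings tried, with log2 differences of 0.96 to 1.36 for Zbp1 and 0.45 to 0.70 for Adar. The median of all tested genes was itself 0.16 higher after ENU, and rescaling the libraries to bring that median to 0 left Zbp1 0.96 higher (limma, adjusted p = 0.0346) and Adar 0.45 higher (limma, adjusted p = 0.00807).

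Among the RNA sensors, Dhx58 had 17.99, 12.7 and 16.7 FPKM in Tert-/- ENU livers, against 7.68, 10.5 and 9.38 FPKM in Tert-/- saline livers. In wild-type livers it had 22.7, 15.7 and 15.1 FPKM after ENU, against 11.2, 11.5 and 13.0 FPKM after saline. As deposited, the ENU libraries lay above the saline libraries within each genotype, while 1 Tert-/- ENU library fell under 1 wild-type saline library. After median-ratio rescaling the wild-type groups stayed apart, but Tert-/- ENU replicates 2 and 3, at 12.2 and 15.7, lay under Tert-/- saline replicate 2 at 16.05. Dhx58 was 0.62 ± 0.14 (SE, log2) higher after ENU averaged over genotypes (limma, adjusted p = 0.0145), 0.72 ± 0.19 higher in Tert-/- livers (limma, adjusted p = 0.0391) and 0.52 in wild-type livers (limma, adjusted p = 0.284). The averaged difference did not pass with voom on recovered reads (limma voom, adjusted p = 0.107) or after median-ratio scaling (limma, adjusted p = 0.133). An antisense gene, Dhx58os, overlaps 141 exonic bases and averaged 0.0754 FPKM.

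Ifih1, the receptor for long double-stranded RNA, had 15.8, 13.7 and 16.4 FPKM in Tert-/- ENU livers, against 13.9, 6.50 and 15.4 FPKM in Tert-/- saline livers. Wild-type livers had 17.7, 15.3 and 16.2 FPKM after ENU, against 9.37, 10.6 and 10.5 FPKM after saline. The wild-type groups did not overlap, with a ratio of means of 1.62, whereas Tert-/- saline replicates 1 and 3 already lay above every wild-type saline library and within reach of the ENU libraries. With all libraries Ifih1 passed the threshold in no comparison; its ENU difference was 0.41 in Tert-/- livers (limma, adjusted p = 0.283) and 0.64 in wild-type livers (limma, adjusted p = 0.299). Without Tert-/- saline replicate 2, the ENU difference of Ifih1 was 0.06 in Tert-/- livers, and Ifih1 was 0.64 higher after ENU in wild-type livers (limma, adjusted p = 0.00463). Ifih1 was then also 0.49 higher in Tert-/- than in wild-type saline livers (limma, adjusted p = 0.0226). The difference between those ENU effects, 0.58 smaller in Tert-/- livers, did not pass the threshold (limma, adjusted p = 0.208), so a genotype-dependent response of Ifih1 was not shown.

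Ddx58, the sensor of RNA ends that bear a triphosphate, had 19.9, 18.5 and 20.7 FPKM in Tert-/- ENU livers, against 15.97, 8.06 and 19.2 FPKM in Tert-/- saline livers. Wild-type livers had 24.7, 20.1 and 21.4 FPKM after ENU, against 16.3, 19.3 and 18.8 FPKM after saline. Only the wild-type groups were free of overlap, and after median-ratio rescaling they overlapped too, with wild-type ENU replicate 2 at 17.8 and wild-type saline replicates 2 and 3 at 18.6 and 18.8. The ENU difference was 0.50 in Tert-/- livers (limma, adjusted p = 0.196) and 0.27 in wild-type livers, and it was 0.16 in Tert-/- livers without Tert-/- saline replicate 2. The 2 promoters with an exact match to the interferon element core belonged to members that did not pass the ENU test with all libraries. Of the members that did pass, Zbp1 and Dhx58 had no promoter entry to search, and Adar and Ikbke had no exact match. Near matches were not counted, and the downstream Adar promoter holds gaaagtgaac, which differs from the core at its last base. A link between the element and the ENU differences was not tested.

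Mavs, the mitochondrial adaptor that relays RIG-I and MDA5 signals, had 44.7, 41.5 and 43.8 FPKM in Tert-/- ENU livers, against 38.8, 18.4 and 36.2 FPKM in Tert-/- saline livers. Wild-type livers had 44.3, 49.7 and 59.8 FPKM after ENU, against 41.7, 46.1 and 40.9 FPKM after saline. The Tert-/- groups were apart and the wild-type groups overlapped, but no difference passed the threshold. Its ENU difference was 0.53 in Tert-/- livers (limma, adjusted p = 0.16) and 0.20 without Tert-/- saline replicate 2.

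The kinase genes Ikbke and Tbk1 are described in turn, and a difference between them was not tested. Ikbke, the inducible member of the pair, had 17.9, 21.6 and 20.5 FPKM in Tert-/- ENU livers, against 13.4, 13.1 and 13.0 FPKM in Tert-/- saline livers. In wild-type livers it had 26.2, 21.9 and 28.4 FPKM after ENU, against 22.9, 19.6 and 18.00 FPKM after saline. As deposited, all Tert-/- libraries lay under all wild-type libraries in each treatment, and the Tert-/- saline libraries lay close together (SD 0.219 FPKM). After median-ratio rescaling the genotypes overlapped in each treatment: Tert-/- saline replicate 2 stood at 19.99, above 2 wild-type saline libraries, and Tert-/- ENU replicate 2 at 20.7, above wild-type ENU replicate 2 at 19.4. Ikbke was the single tested member past the threshold for genotype: it was 0.45 ± 0.11 (SE, log2) lower in Tert-/- livers averaged over treatments (limma, adjusted p = 0.042) and 0.57 ± 0.15 lower in saline (limma, adjusted p = 0.0499). Both calls lay close to the threshold: the averaged one held in 3 of 17 alternative settings and the saline one in 1 of 18. After ENU it was 0.33 lower in Tert-/- livers (limma, adjusted p = 1.0). The ENU difference of Ikbke was 0.44 ± 0.11 averaged over genotypes (limma, adjusted p = 0.0195) and 0.57 ± 0.15 in Tert-/- livers (limma, adjusted p = 0.0369). The averaged one did not pass with voom (limma voom, adjusted p = 0.223) or after median-ratio scaling (limma, adjusted p = 0.235). Antisense genes Gm28914 and Gm28913 overlap 159 and 65 of its exonic bases, and Gm28913 averaged 1.59 FPKM.

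Tbk1, the constitutively expressed kinase, had 10.2, 12.4 and 10.6 FPKM in Tert-/- ENU livers, against 10.4, 4.26 and 9.48 FPKM in Tert-/- saline livers. In wild-type livers it had 10.5, 9.53 and 10.3 FPKM after ENU, against 9.63, 8.89 and 8.52 FPKM after saline. The groups overlapped in every comparison of 3 libraries with 3, and no difference passed the threshold; the averaged ENU difference was 0.32 ± 0.17 (limma, adjusted p = 0.233), and 0.14 without Tert-/- saline replicate 2 (limma, adjusted p = 0.166).

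Counted over the 9 tested members, 4 were higher after ENU in Tert-/- livers (Zbp1, Adar, Dhx58 and Ikbke), where 8.13% of all tested genes were higher. Those calls held in 15 of 18 alternatives for Adar, 11 for Zbp1, 6 for Ikbke and 5 for Dhx58. The count was 0 without Tert-/- ENU replicate 1 or 3, where 224 of 12372 and 333 of 12385 tested genes were higher. It was 1 without Tert-/- saline replicate 1, where 1179 of 12387 were, and 5 without Tert-/- saline replicate 3, where 2341 of 12347 were. It was 2 without Tert-/- ENU replicate 2, where 376 of 12368 were, or any wild-type saline library, where 678 to 700 genes were. In wild-type livers 0 of 9 passed the limma test, where 0.748% of all tested genes were higher; 4 members had an unadjusted p under 0.05 and voom called 0. Without Tert-/- saline replicate 2 the wild-type count was 3 (Ifih1, Zbp1 and Adar) and 8.58% of tested genes were higher. Averaged over genotypes 4 were higher, again Zbp1, Adar, Dhx58 and Ikbke, where 11.3% of all tested genes were higher. For genotype, 1 of 9 was lower in Tert-/- saline livers, where 4.26% of all tested genes were lower, and 1 of 9 was lower averaged over treatments, where 3.39% were; both were Ikbke. The saline count was 0 without any 1 of the libraries other than Tert-/- saline replicate 2, where 3 to 1152 of all tested genes were lower. The averaged count was 0 without any 1 other than Tert-/- saline replicates 2 and 3, where 5 to 453 were lower. Between genotypes after ENU 0 of 9 differed by limma, with 2 at an unadjusted p under 0.05 and 0 calls by voom. Limma called 0% of all tested genes there, with 541 genes at an unadjusted p under 0.05. The ENU effects differed between genotypes for 0 of 9 members by limma and by voom, with 0 at an unadjusted p under 0.05, and for 0% of all tested genes, with 844 at an unadjusted p under 0.05. The median log2 difference of the 9 members after ENU was 0.53 in Tert-/- livers and 0.32 in wild-type livers, beside medians of 0.24 and 0.10 over all tested genes. Without Tert-/- saline replicate 2 the Tert-/- median was 0.20, beside 0.08 over all tested genes.

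Without that replicate the other counts were as follows. After ENU 4 members were higher in Tert-/- livers, where 13% of tested genes were, and 5 were higher averaged over genotypes (Ifih1 joined, by 0.35, limma adjusted p = 0.00653), where 21.3% were. In Tert-/- saline livers 1 member was higher (Ifih1), where 4.71% of tested genes were, and 1 was lower (Ikbke), where 8.23% were. Averaged over treatments 1 was lower in Tert-/- livers (Ikbke), where 9.22% were.

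**Figure D2:**
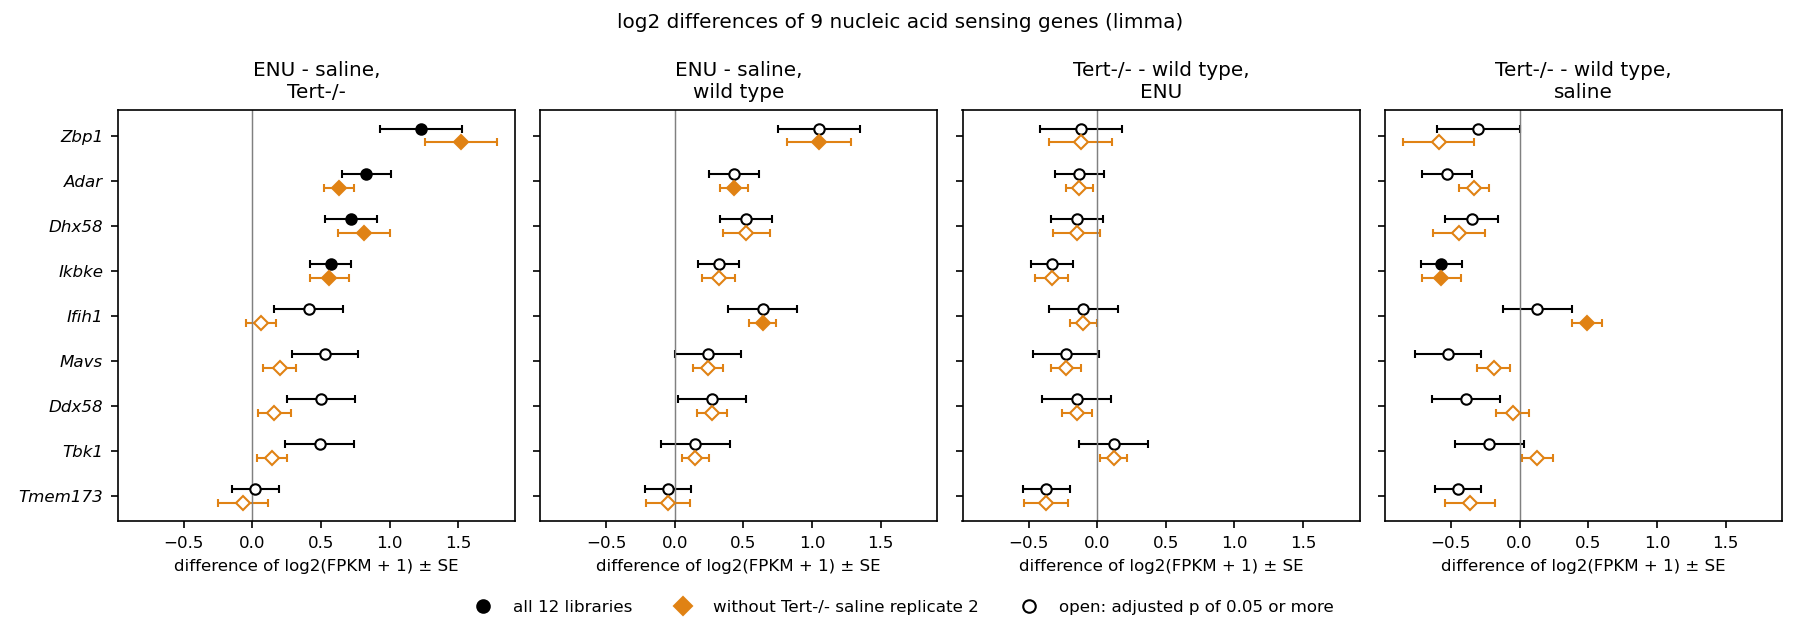
Differences of log2(FPKM + 1) ± SE (x axis) of the 9 tested members (rows) in 4 comparisons, with all 12 libraries (black circles) and without Tert-/- saline replicate 2 (orange diamonds); filled symbols passed an adjusted p of 0.05. Zbp1, Adar, Dhx58 and Ikbke are filled in the Tert-/- ENU panel, and leaving out the replicate moves Ifih1, Mavs, Ddx58 and Tbk1 in both panels that use it.

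As deposited and without overlap between libraries, 5 of the 10 members were higher after ENU in Tert-/- livers (Dhx58, Mavs, Zbp1, Ikbke and Adar), where 24.5% of tested genes were, and 5 were higher after ENU in wild-type livers (Ddx58, Ifih1, Dhx58, Zbp1 and Adar), where 27% were. In saline, 5 members were lower in Tert-/- livers (Dhx58, Mavs, Tmem173, Ikbke and Adar), where 19.5% of tested genes were. After ENU, 3 members were lower in Tert-/- livers (Mb21d1, Tmem173 and Ikbke), where 10.4% were. These comparisons share groups, so they are not independent of each other, and Tmem173 was lower in Tert-/- libraries by the way it passed the filter. After median-ratio rescaling fewer members were apart. After ENU 2 were then higher in Tert-/- livers (Mavs and Adar), where 14.4% of genes were, and 4 in wild-type livers (Ifih1, Dhx58, Zbp1 and Adar), where 16.9% were. In saline 3 were lower in Tert-/- livers (Mavs, Tmem173 and Adar), where 12.5% were, and after ENU 1 was (Tmem173), where 7.74% were. The shares cover genes that passed the filter, which Mb21d1 did not pass, nor did Tmem173 after rescaling. As deposited but without Tert-/- saline replicate 2, the same 5 members were higher after ENU in Tert-/- livers, where 29.6% were. In saline 6 were then lower in Tert-/- livers, where 24.8% were, since Zbp1 joined, and Ifih1 was higher, where 22% were.

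The DNA sensing genes were the 2 members at the bottom of the expression range. Tmem173 had 0.445, 0.690 and 0.440 FPKM in Tert-/- ENU livers and 0.565, 0.315 and 0.626 FPKM in Tert-/- saline livers. It had 1.19, 0.851 and 0.895 FPKM in wild-type ENU livers and 1.01, 1.45 and 0.736 FPKM in wild-type saline livers. All 6 Tert-/- libraries lay under all 6 wild-type libraries, and ENU and saline libraries overlapped in both genotypes. Without Tert-/- saline replicate 2 the genotypes stayed apart, where 2.01% of tested genes were lower in Tert-/- libraries without overlap. That share cannot be smaller than the share with all 12 libraries. After median-ratio rescaling the genotypes also stayed apart, where 0.898% of the genes that then passed the filter were lower without overlap. Tmem173 itself did not pass the filter then. The recovered reads summed to 267 in the 6 Tert-/- libraries and 532 in the 6 wild-type libraries. Because the gene passed the filter through wild-type libraries alone, the genotype differences are given as a description. The log2(FPKM + 1) difference, 0.41 ± 0.12 (SE) lower in Tert-/- livers averaged over treatments, did not pass the threshold (limma, adjusted p = 0.081), nor did it with no filter on low values, at the same size (limma, adjusted p = 0.105). With voom on recovered reads, which adds no such pseudocount, it was 0.82 lower and again did not pass (limma voom, adjusted p = 0.0941). Its averaged ENU difference was −0.01 (limma, adjusted p = 0.943).

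Mb21d1 was read by 4 to 27 fragments per library. It had 7, 9 and 6 reads in Tert-/- ENU livers and 10, 4 and 4 reads in Tert-/- saline livers. It had 27, 14 and 10 reads in wild-type ENU livers and 14, 26 and 10 reads in wild-type saline livers. As FPKM it averaged 0.0567 ± 0.0132 in Tert-/- ENU livers and 0.0521 ± 0.0269 in Tert-/- saline livers, against 0.15 ± 0.11 in wild-type ENU livers and 0.137 ± 0.0853 in wild-type saline livers (SD, n = 3 each). After ENU the genotypes did not overlap, and in saline Tert-/- replicate 1 lay above 1 wild-type library. An exact two-sided permutation test of genotype within treatment, chosen after these values were seen and not adjusted for other genes, gave a difference of −0.0893 FPKM (Tert-/- minus wild type, p = 0.02, where 0.005 is the smallest p the 400 arrangements allow). The exact permutation p was 0.025 to 0.065 when any 1 Tert-/- library was left out, and 0.005 to 0.035 when any 1 wild-type library was. The same exact test for ENU within genotype gave a difference of 0.00872 FPKM (p = 0.7). An ENU change of Mb21d1 was not detected at these counts.

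Both genes are expressed in macrophages and other immune cells as well as in endothelium, so marker levels of those cells are set beside them. The 8 Kupffer cell markers, genes of the resident liver macrophages, summed to 82.1, 107 and 83.1 FPKM in Tert-/- ENU livers and 121, 220 and 109 FPKM in Tert-/- saline livers. They summed to 263, 216 and 92.7 FPKM in wild-type ENU livers and 268, 355 and 189 FPKM in wild-type saline livers. The sums of the genotypes overlapped in each treatment. In saline the overlap rested on Tert-/- saline replicate 2, since the other Tert-/- saline sums lay under all wild-type saline sums. Of the 8 markers, 4 were lower in Tert-/- livers averaged over treatments (Adgre1, Csf1r, Cd5l and Vsig4), and the list's median log2 difference was −0.96, beside −0.11 over all tested genes, of which 3.39% were lower. Leaving out Tert-/- saline replicate 2, 7 were lower, where 9.22% of tested genes were, and voom called none of the 8 with all libraries. Of 7 sinusoidal endothelial markers 1, Oit3, was lower in Tert-/- livers, with a list median of −0.48, and 4 were without that replicate (Kdr, Oit3, Stab1 and Stab2). Of 4 stellate cell markers 0 were lower by limma or by voom, with 4 at an unadjusted p under 0.05 and a list median of −0.51, and 3 were without it (Dcn, Des and Lrat). Dendritic cell markers, 4 genes, summed to 0.73 to 1.44 FPKM in Tert-/- ENU livers and 0.641 to 1.97 in Tert-/- saline livers, against 1.52 to 1.91 in wild-type ENU livers and 2.82 to 3.04 in wild-type saline livers. Those sums did not overlap between genotypes within either treatment, and 1 of the 4 genes passed the filter. Nor did the stellate sums overlap, at 41.5 to 45.1 FPKM in Tert-/- ENU livers against 51.4 to 73.6 in wild-type ENU livers. In saline they were 38.9 to 51.5 in Tert-/- livers against 65.9 to 83.2 in wild-type livers. The endothelial sums overlapped after ENU, but not in saline, at 89.5 to 113 FPKM in Tert-/- livers against 137 to 163 in wild-type livers. T and NK cell sums overlapped in saline. After ENU they were 0.378 to 0.903 FPKM in Tert-/- livers against 1.22 to 2.04 in wild-type livers. B cell sums overlapped after ENU. In saline they were 0.493 to 1.82 FPKM in Tert-/- livers against 1.83 to 2.99 in wild-type livers. Of these low markers 1 of 8 T and NK cell genes and 0 of 4 B cell genes passed the filter. Neutrophil sums overlapped in both treatments. The contribution of these markers in the Tmem173 and Mb21d1 differences was not tested, and in whole liver fewer cells of a type and less RNA per cell cannot be told apart.

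**Figure D3:**
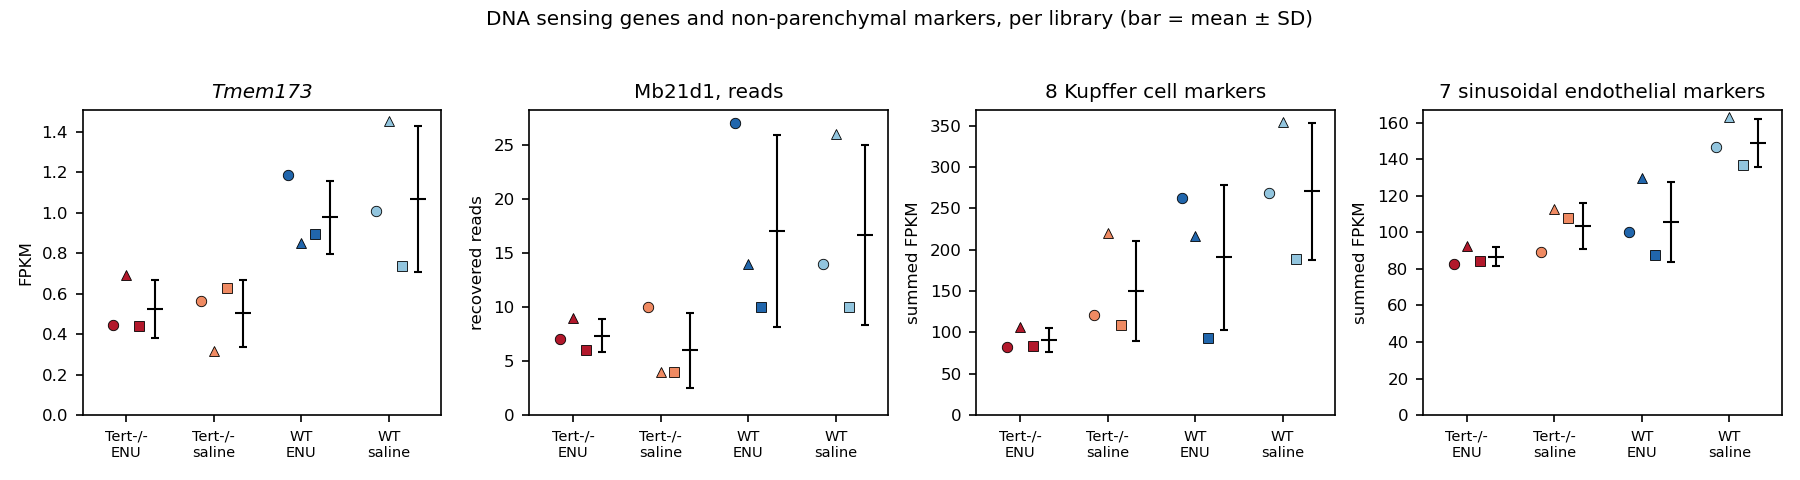
Tmem173 in FPKM, Mb21d1 in recovered reads, and the summed FPKM of Kupffer cell and sinusoidal endothelial markers (y axes, linear from 0) in each library of the 4 groups (x axes), with bars for the mean ± SD. The 6 Tert-/- points of Tmem173 all lie under the 6 wild-type points, a difference built into its passing the filter through wild-type libraries alone. Both marker sums overlap between the 6 Tert-/- and 6 wild-type libraries, but within saline the endothelial sums do not.

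Beside the ENU differences of Zbp1 and Adar, 1 of the 8 Kupffer cell markers (Cd5l) was lower after ENU averaged over genotypes and none was higher, with a list median of −0.53; 2.73% of all tested genes were lower. Of the 7 endothelial markers 3 were lower and none higher, with a median of −0.45. Without Tert-/- saline replicate 2, 5 were lower, where 800 of 12395 tested genes were lower. Of 4 erythroid markers 3 globin genes (Hba-a1, Hbb-bs and Hbb-bt) were lower, with a median of −2.75. The remaining one, Alas2, was 0.26 higher and did not pass (limma, adjusted p = 0.148). Without Tert-/- saline replicate 2 it passed, 0.31 higher (limma, adjusted p = 0.0357), where 21.3% of tested genes were higher. Of 6 hepatocyte markers 1, Ttr, was lower, with a median of −0.45, and 3 were without that replicate. The 2 tested neutrophil markers had a median of −1.02, and neither passed. Their contribution to the member differences was not tested. T and NK cell markers summed to 0.378 to 0.903 FPKM in Tert-/- ENU livers against 0.881 to 4.44 in Tert-/- saline livers, and to 1.22 to 2.04 in wild-type ENU livers against 2.91 to 6.15 in wild-type saline livers. B cell markers summed to 0.07 to 0.424 FPKM in Tert-/- ENU livers against 0.493 to 1.82 in Tert-/- saline livers. In wild-type livers they summed to 0.165 to 0.528 FPKM after ENU against 1.83 to 2.99 after saline.

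Genes that work beside the sensors were listed by role, and the median difference of a list is given beside that of all tested genes, 0.16 after ENU averaged over genotypes, and 0.09 without Tert-/- saline replicate 2. Of all tested genes 11.3% were higher and 2.73% lower, so a short list holds some calls at the background share. Without that replicate 21.3% were higher, and 800 of 12395 genes were lower. The list genes named here as higher or lower after ENU stayed past the threshold without it. Voom with all libraries called 757 genes higher and 618 lower of 12434. In the lists it called 2 partners of RNA sensing, 3 partners of DNA sensing and 2 TBK1 complex genes. It also called 1 other RNA sensor gene, 4 interferon-stimulated genes and 0 of the interferons, receptors and their kinases. Of 17 tested partners of RNA sensing 4 were higher and none lower, with a list median of 0.31, and without Tert-/- saline replicate 2 the same 4 were higher with a median of 0.18. They were Nlrc5, a regulator of MHC class I genes that also acts on RIG-I signalling, Trim25 and Rnf135, ubiquitin ligases that activate RIG-I, and Casp8, a protease of the death receptor pathway. Nlrc5 averaged 15.5 ± 1.35 FPKM in Tert-/- ENU livers against 7.67 ± 1.62 in Tert-/- saline livers, and 15.2 ± 0.909 in wild-type ENU livers against 9.89 ± 0.955 in wild-type saline livers (SD, n = 3 each). Trim25 averaged 38.4 ± 0.826 FPKM in Tert-/- ENU livers against 17.4 ± 8.01 in Tert-/- saline livers, and 35.7 ± 1.86 in wild-type ENU livers against 21.2 ± 2.04 in wild-type saline livers. The averaged log2 differences were 0.76 ± 0.12 for Nlrc5 (limma, adjusted p = 0.00252) and 0.97 ± 0.20 for Trim25 (limma, adjusted p = 0.0111).

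Of 20 tested partners of DNA sensing 2 were higher after ENU and 1 was lower, with a list median of 0.04. With Tert-/- saline replicate 2 left out, 3 were higher and 3 lower, with a median of 0.01. Trim56, a ubiquitin ligase that acts on cGAS and STING, was 0.72 higher, and Xrcc5, the Ku80 subunit of the DNA end-binding complex, was 0.38 higher. Dnase1l3, a secreted nuclease that degrades extracellular DNA, was 0.92 ± 0.17 (SE, log2) lower (limma, adjusted p = 0.00715). It averaged 5.72 ± 0.0865 FPKM in Tert-/- ENU livers against 12.8 ± 4.99 in Tert-/- saline livers, and 8.39 ± 2.27 in wild-type ENU livers against 15.8 ± 2.19 in wild-type saline livers (SD, n = 3 each). Dnase1l3 was thus lower after ENU while the sinusoidal endothelial markers, of the cells that express it together with macrophages, were in part lower too; their contribution was not tested.

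In the group of TBK1 complex, interferon regulatory factor and NF-κB genes 3 of 14 were higher after ENU and none lower, with a list median of 0.30. When Tert-/- saline replicate 2 was left out, 6 were higher and 2 lower (Irf5 and Tank), with a median of 0.19, and Irf7, a regulator of type I interferon genes, was 0.92 higher (limma, adjusted p = 0.00848). Tbkbp1 and Optn, adaptors that bind TBK1, were 0.82 and 0.52 higher, and Rela, an NF-κB subunit, was 0.36 higher. Of 14 tested genes for other sensors of double-stranded or Z-form RNA 2 were higher, the oligoadenylate synthetase genes Oas2 by 0.68 and Oas1b by 0.54, with a list median of 0.33. In the fit without that replicate 4 were higher, with Oas1a and Ticam1 added, and the median was 0.31. Both were low, at 2.09 and 1.30 FPKM over all libraries.

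Of 24 tested interferon-stimulated genes 4 were higher after ENU averaged over genotypes and none lower, and the list median of 0.15 lay beside 0.16 over all tested genes. In the fit without Tert-/- saline replicate 2, 5 were higher, and the median was 0.21 beside 0.09. Within genotypes this median was 0.10 beside 0.24 over all tested genes in Tert-/- livers, and 0.38 beside 0.10 in wild-type livers. Taken gene by gene, the difference between the ENU effects (Tert-/- minus wild type) had a list median of 0.02, beside 0.16 over all tested genes. Without Tert-/- saline replicate 2 it was −0.19 beside −0.01. By limma 0 of the 24 passed for this difference in either fit, so a genotype-dependent response of the list was not shown. The 4 were Irf9 and Stat2, subunits of the factor that binds the interferon element, Xaf1, a proapoptotic gene, and Parp14, an ADP-ribosyltransferase. Irf9 averaged 22.7 ± 3.5 FPKM in Tert-/- ENU livers against 11.4 ± 4.88 in Tert-/- saline livers, and 25.5 ± 1.53 in wild-type ENU livers against 16.3 ± 1.14 in wild-type saline livers (SD, n = 3 each). The averaged log2 difference was 0.82 ± 0.19 for Irf9 (limma, adjusted p = 0.0171) and 0.77 ± 0.15 for Xaf1 (limma, adjusted p = 0.00969). Of 7 tested interferons, receptors and their kinases 2 were higher, Ifngr2 by 0.36 and Tyk2 by 0.47. The interferon genes Ifnb1, Ifna4, Ifnl2 and Ifnl3 were listed at 0 in every library.

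For genotype the calls in the lists depended on Tert-/- saline replicate 2. With all libraries and averaged over treatments, the limma test called 0 partners of RNA sensing, 0 partners of DNA sensing, 0 TBK1 complex genes and 0 other RNA sensor genes, and 453 genes in all; voom called 0 in each of these lists. At an unadjusted p under 0.05 were 3, 7, 6 and 8 genes of these lists in that order. Without that replicate 1 partner of RNA sensing was higher in Tert-/- livers (Prkra) and 1 lower (Traf3), and 2 partners of DNA sensing were lower (Dnase1l3 and Samhd1). Of the TBK1 complex genes 2 were then higher (Chuk and Optn) and 3 lower (Nfkb1, Rela and Tbkbp1), and 5 other RNA sensor genes were lower (Mlkl, Oas1a, Oas2, Ticam1 and Unc93b1). Of all tested genes 9.22% were then lower, and 483 of 12395 were higher. Of the interferon-stimulated genes 1 was lower in Tert-/- livers, Cmpk2, a mitochondrial nucleotide kinase, by 0.69 ± 0.15 (limma, adjusted p = 0.0335). It averaged 1.39 ± 0.472 FPKM in Tert-/- ENU livers and 0.883 ± 0.27 in Tert-/- saline livers, against 2.32 ± 0.699 in wild-type ENU livers and 2.49 ± 0.17 in wild-type saline livers (SD, n = 3 each). After ENU the estimates of all 24 tested interferon-stimulated genes lay below 0 for Tert-/- against wild type, with a median of −0.28 beside −0.03 over all tested genes. None passed the limma threshold, with 3 at an unadjusted p under 0.05 and 0 calls by voom. The genes were measured in the same libraries, so their signs are not independent of each other, and the shared sign was not tested. The share of all tested genes below 0 is not given here.

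**Figure D4:**
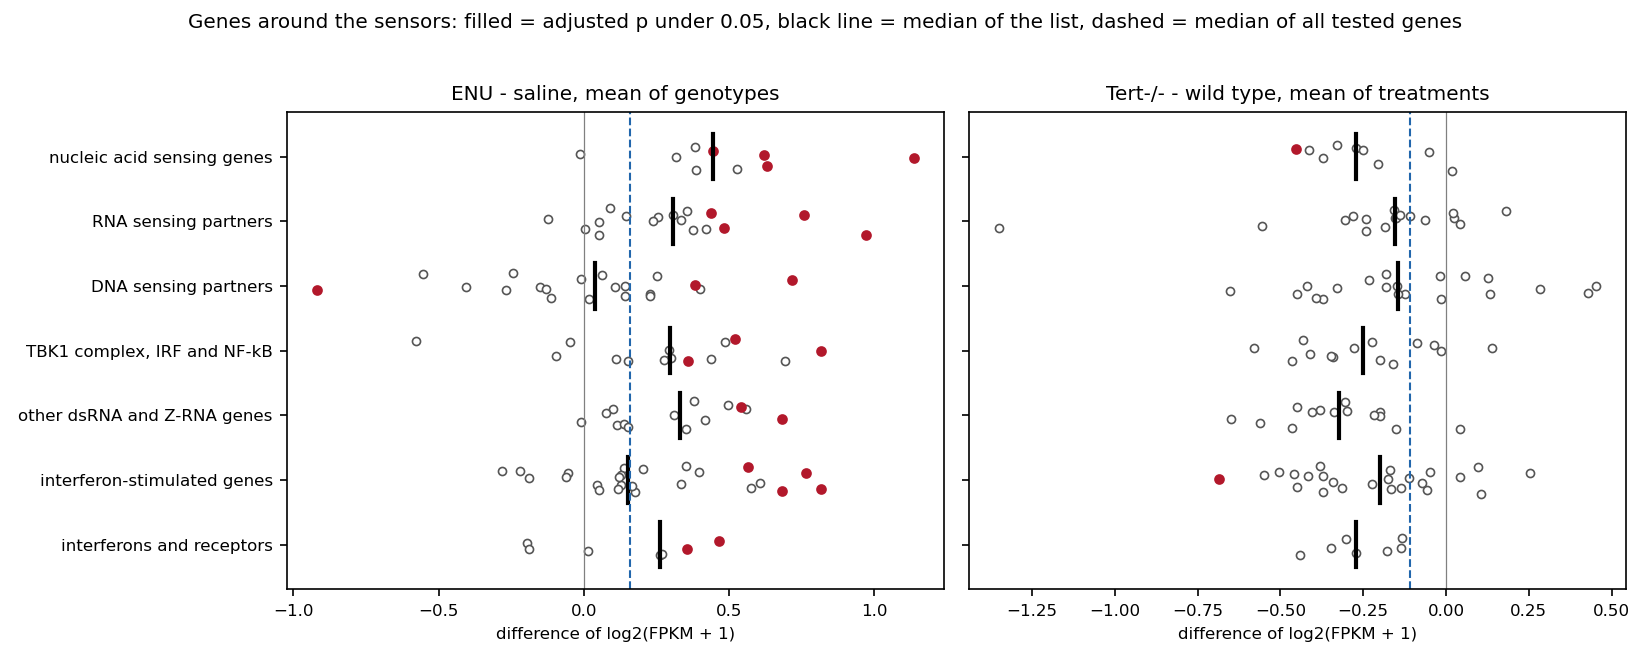
Differences of log2(FPKM + 1) (x axes) for ENU against saline averaged over genotypes and for Tert-/- against wild type averaged over treatments, for the tested genes of each list (rows). Filled points passed an adjusted p of 0.05, black lines are list medians and the dashed line is the median of all tested genes, 0.16 after ENU and −0.11 for genotype; the interferon-stimulated genes have their ENU median at 0.15.

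Likeness of pattern was described by Pearson's r of log2(FPKM + 1) over the 12 libraries, which share groups and Tert-/- saline replicate 2, so r is given also over the 11 others. The gene most like Zbp1 was Bax, a proapoptotic target of p53, with r = 0.917, and 0.918 without Tert-/- saline replicate 2. The gene most like Dhx58 was Ercc2, a helicase of nucleotide excision repair, with r = 0.924, and 0.923 without it. The gene most like Adar was Pom121, a nuclear pore protein gene, with r = 0.992, and 0.984 without it. For Tmem173 it was Emilin2, an extracellular matrix glycoprotein gene, with r = 0.918, and 0.932 without it, followed by Inpp5d and Fyb, both expressed in blood cells. For Ddx58 it was Parp12 with r = 0.983, and 0.906 without it, for Ikbke Med16 with r = 0.951, and 0.944 without it, and for Ifih1 Rev1, a translesion polymerase gene, with r = 0.961, and 0.917 without it. For Mavs it was Kmt5a, with r = 0.985, and 0.938 without it, and for Tbk1 Bmpr1a, with r = 0.985, and 0.888 without it. Among the members themselves, Dhx58 and Zbp1 had r = 0.899, and 0.912 without the replicate. Mavs and Tbk1 had r = 0.827, and 0.023 without it, so that likeness rested on 1 library.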

How the data were processed

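RNA sequencing of 12 mouse liver libraries, 3 per group, was analysed; group and replicate were read from the sample titles. Per the labels' protocols, total RNA was extracted with TRIzol and made into libraries with an NEBNext Ultra kit. HISAT2, HTSeq and the mm10 build are named in the submitters' processing notes; the sources used here give neither their versions nor the annotation release or strand setting. A single deposited table of FPKM values, made by the authors, was the input. The 10 members and the gene lists were chosen with earlier results of these data known.

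As FPKM is no count, limma 3.58.1 (R 4.3.3) was applied to log2(FPKM + 1), with a mean per group, a variance trend and all 12 libraries in the model. A gene entered when 3 or more libraries reached 1 FPKM (12434 genes). Tests were two-sided, adjusted by Benjamini-Hochberg over all tested genes within each comparison, with a threshold of 0.05. Mb21d1, under this filter, was tested by an exact permutation. Genes named from a list were up to 4 past the threshold with the smallest adjusted p, or otherwise the 2 most abundant.

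Reads were recovered from the FPKM values: all 26524 genes above 0 gave whole reads within 0.01 in every library, 15675 by mean GENCODE transcript length and 10849 by a fitted length. The fitted length was the smallest whole number of bases that made the reads whole. For those 10849 genes whole reads were therefore the rule of the fit and not a check of it. Voom on the recovered reads was an alternative test and called 1375 genes for ENU averaged over genotypes, against 1749 in the main analysis. The coefficient of variation expected from read counting alone was 32.5% for Mb21d1 and 13% for Tmem173, against 55.7% and 28.8% within groups; for the other 8 members it was 1.63 to 5.42%, against 10.2 to 35.6%. Steps were tested on simulated data. Python 3.11.15 with pandas 2.3.3 and numpy 2.4.6 made the tables. Genome positions were, in mm10, Ddx58 chr4:40203773-40239828, Ifih1 chr2:62595798-62646255, Dhx58 chr11:100694884-100704271, Mavs chr2:131234063-131248025, Zbp1 chr2:173206612-173218923, Tbk1 chr10:121546455-121586794, Ikbke chr1:131254343-131279606, Adar chr3:89715022-89753446, Mb21d1 chr9:78430526-78443237 and Tmem173 chr18:35733678-35740554.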

Additional observations from a re-analysis of the deposited data

How the results depend on the processing

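The alternatives were a pseudocount of 0.1, no filter on low values, median-ratio scaling, a replicate block, voom on recovered reads, a fit of only the 2 groups compared, and leaving out each library. Of 1079 member values under these alternatives, 964 kept their direction and side of the threshold, 74 no longer passed, 12 newly passed and 29 changed sign. Zbp1 and Adar passed for ENU averaged over genotypes in 17 of 17, Dhx58 in 15 and Ikbke in 11.

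The number of members past the threshold for ENU in wild-type livers was 3 with only the 2 groups compared, where 895 of 12434 genes were higher. It was 0 to 3 without each library, where 40 to 1064 genes were higher. For ENU in Tert-/- livers it was 2 with no low-value filter, 1 with median-ratio scaling, 2 with the replicate block, 1 with voom, 0 with only the 2 groups compared and 0 to 5 without each library. Over all genes 627 of 26524 were higher with no filter, 523 of 12359 with median-ratio scaling and 796 of 12434 with the block. With voom 479 were higher, with only the 2 groups 47, and without each library 224 to 2341. For Tert-/- against wild type in saline the number of members was 0 with a pseudocount of 0.1, no filter, median-ratio scaling, the replicate block, voom or only the 2 groups, and 0 to 2 without each library. The calls over all genes were 485, 280, 404, 344, 338 and 1 in that order, and 4 to 1604 without each library. For ENU averaged over genotypes the number of members was 2 with median-ratio scaling and 2 with voom, where 758 and 757 genes were higher. For genotype averaged over treatments the number of members was 0 with no filter, median-ratio scaling, the replicate block or voom, and 0 to 1 without each library. Calls over all genes were 95, 207, 267 and 258 in that order, and 8 to 1626 without each library. The cause of these changes was not tested.

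Signs that changed were all of differences that did not pass. Tmem173 for ENU in Tert-/- livers was −0.23 with voom and −0.07 to 0.08 without each library, for ENU averaged −0.07 to 0.02, and for the difference between ENU effects −0.03 with voom and −0.02 to 0.19. Tbk1 for genotype averaged was 0.07 with median-ratio scaling, 0.08 with voom and −0.16 to 0.12 without each library, for genotype in saline −0.43 to 0.13, and for the difference between ENU effects −0.01 to 0.55. Ifih1 for genotype in saline was −0.08 to 0.49 and averaged −0.09 to 0.20, Dhx58 and Zbp1 for genotype after ENU −0.26 to 0.02 and −0.28 to 0.09, and the difference between ENU effects −0.11 to 0.47 for Ddx58, −0.04 to 0.48 for Mavs and −0.04 to 0.48 for Zbp1.

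Tmem173 was not tested after median-ratio scaling or without wild-type saline replicate 1 or 2 or wild-type ENU replicate 1, so its ranges cover the other 9 libraries. Median-ratio scaling moved the median of all genes for ENU averaged to 0.00, and changed the split of calls over all genes (higher and lower) to 758 and 616 for ENU averaged, against 1409 and 340 as deposited, to 523 and 336 for ENU in Tert-/- livers, against 1011 and 180, to 70 and 53 for ENU in wild-type livers, against 93 and 31, to 131 and 273 for genotype in saline, against 93 and 530, and to 49 and 158 for genotype averaged, against 32 and 421. Deviations of same-numbered libraries correlated at −0.156 to 0.208, and 9 of 12 libraries had their highest mean correlation with their own number. The labels tie the numbers to no litter, batch or day and some same-numbered pairs fell under 0.1, so the design does not give a pairing. The block left 954 calls over all genes for ENU in Tert-/- livers, against 1191. Without Tert-/- saline replicate 2 the calls over all genes for ENU in wild-type livers were 1324, against 124.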
